A study of Mus musculus with 12 samples.

Results

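The genes described here are 45 genes of the cell cycle and of DNA replication, chosen by name: 16 that act in S-phase (cyclin E, the Mcm helicase, licensing factors and enzymes of nucleotide supply), 28 that act in mitosis, and Ccnd1, the cyclin D of G1. They were looked up by symbol, in any case, in a table of normalized signals from Illumina mouse BeadChips, arrays that carry probes on coated beads. The table gave 58 probes for 31 of the 45 genes (14 S-phase, 16 mitotic and Ccnd1), among 21004 probes and 15424 gene symbols in all. Total RNA came from hip cartilage of C57BL6 mice that were wild type (WT) or labelled MAPK9 KO, here Mapk9 KO. Mapk9 encodes JNK2, a c-Jun N-terminal kinase. How the Mapk9 deletion was made is not given in the sources used here. The labels give an age of 4 to 6 weeks and the methods 5 to 6 weeks. There were 4 groups of 3 arrays each, control and injured tissue of each genotype. Injury was the avulsion of the femoral epiphysis. Control tissue was snap-frozen at once, and injured tissue was kept for 4 h in serum-free culture, so injury and culture cannot be told apart in any comparison below. According to the methods, each replicate pooled 6 hips from 3 mice. All values are log2 normalized signals, and a change is a difference of log2 values.

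Cells that enter S-phase switch on genes for DNA synthesis under control of the E2F factors. These include Ccne1 and Ccne2, the Mcm genes and Rrm1 and Rrm2. Genes for mitosis rise later, in G2, and many of them are read through CCAAT boxes and through an element called CHR, which the MuvB complex binds. In cartilage of young mice, division is known from the proliferating chondrocytes of the epiphysis and growth plate. Blood-forming cells of the adjoining marrow divide too. In a tissue sample, fewer dividing cells and less RNA per dividing cell cannot be told apart.

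Of the 31 genes, 29 were detected (detection p under 0.05, against negative control probes) at their main probe on all 12 arrays. The main probe is the one with the highest mean over the arrays, and 18 genes had more than 1 probe, up to 4. Of the other 14 genes, Aurka and Cdt1 were in the table under older symbols, Stk6 and Ris2, and are given apart. The remaining 12 (Ccna2, Ccnb2, Bub1, Cenpe, Kif20a, Ube2c, Racgap1, Ttk, Nek2, Hmmr, Tacc3 and Gmnn) had probes on the array but not in the normalized table. Members of the list had 34 such probes, of which 0 were detected on any array. Ccnb2, Ccna2 and Ube2c, which dividing cells use like Ccnb1 and Cdc20, are thus without a value, and a probe that gives no signal does not show that its gene is silent. Levels of different probes are not set against each other, since probes differ in brightness.

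Between 16930 and 18969 probes were detected on an array, and array medians of the normalized values lay between 7.55 and 7.70. Mapk9 itself was lower in Mapk9 KO, by 1.57 on the log2 scale in control tissue at its main probe (SE 0.21, limma adjusted p = 0.0151). Xist, the RNA of the inactive X chromosome, read 9.75 to 10.77 on the 6 Mapk9 KO arrays and on 1 WT control array (10.37), and 3.24 to 6.96 on the other 5 WT arrays. The sex of the mice is not in the labels, so genotype and the make-up of the pools cannot be told apart. Within WT the high value was on a control array only, so the WT injury comparison carries this limit too. The third WT control array stood apart for the genes described here. Each gene was set against its own mean over the 12 arrays, and the median over the 14 S-phase genes was then 0.17 and 0.53 on the first and second WT control arrays and -0.16 on the third. Over the 16 mitotic genes it was 0.13, 0.40 and -0.37. Skeletal muscle markers were high on this array too (a median of 2.29, against 0.80 and 0.12 on the other WT controls and 2.30 to 2.55 on the Mapk9 KO controls). Some counts that rest on it are given with and without it. The counts of genes above or below 0 between genotypes and in the interaction are given only with it.

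Most S-phase genes, and some of the mitotic genes, were lower in injured than in control cartilage after 4 h. Taking the injury effect as the average over both genotypes, 14 of the 31 genes (45.2%) were lower at an adjusted p under 0.05, against a background of 24.9% of all 15424 genes tested. They were 9 of 14 S-phase genes (64.3%) and 5 of 16 mitotic genes (31.2%), the latter share close to the background. With quantile normalization the mitotic count was 9 (56.2%), against 27.8% of all genes. With normexp correction as well it was again 9, against 27.2% of all genes. Without the third WT control array it was 10, and there the share over all genes was not taken. The S-phase count was 9 each time. The S-phase genes were Ccne1, Ccne2, Cdc6, Mcm2, Mcm4, Pcna, Rrm1, Rrm2 and Tk1. The mitotic genes were Ccnb1, Mad2l1, Nusap1, Plk1 and Birc5. By limma 0 of the 31 genes were higher, and 0 were higher at an unadjusted p under 0.05. With the added limit of a fold above 2, 4 genes (12.9%) were lower, against 8.24% of all genes: Rrm2, Ccne1, Ccne2 and Ccnb1. Ccne2 was below background on 2 WT injured arrays and was lower on average by at least 1.93-fold. Under quantile normalization the count with the fold limit was 1 (3.23%), Rrm2, against 3.38% of all genes. The median change was -0.61 over the S-phase genes, -0.30 over the mitotic genes and -0.03 over all genes.

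**Figure D1:**
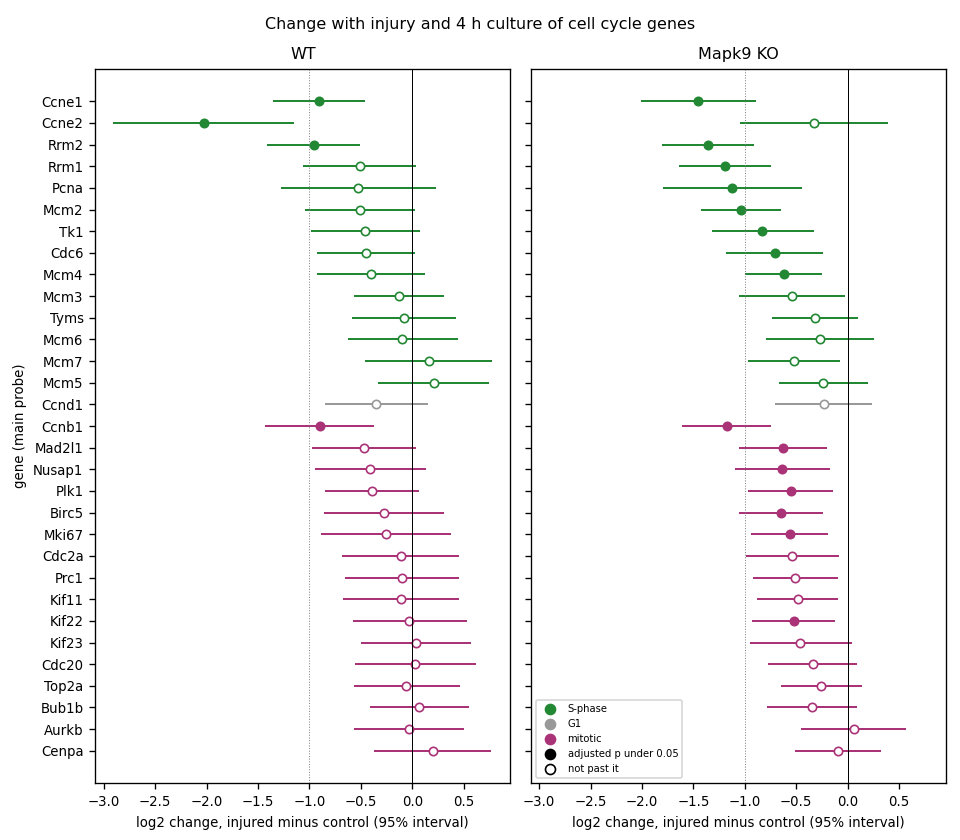
Log2 change with injury and 4 h of culture (horizontal axis, injured minus control, 3 arrays each, with the 95% interval) of 31 genes in WT and in Mapk9 KO. Filled points have an adjusted p under 0.05, and the dotted line marks a fold of 2. In both genotypes Ccne1, Rrm2 and Ccnb1 lie well to the left of 0, while the intervals of Cenpa and Aurkb span it.

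In WT alone, 4 of 31 genes (12.9%) were lower at an adjusted p under 0.05, against a background of 12.7%: Rrm2, Ccne1, Ccne2 and Ccnb1. The count depended on the normalization, with 9 (29.0% against 13.9% of all genes) under neqc, which is normexp correction with quantile normalization, and 10 (32.3% against 14.8%) under quantile normalization alone. With the fold limit it was 1 gene (3.23%), Ccne2, against 7.16%. In Mapk9 KO, 15 of 31 (48.4%) were lower, against 20.3% of all genes, and 6 of 31 (19.4%) with the fold limit, against 9.55%. The 6 fitted changes were those of Ccne1, Rrm2, Rrm1, Pcna, Mcm2 and Ccnb1, of which Pcna was not above background on any Mapk9 KO injured array and was lower by at least 1.15-fold. Under quantile normalization 2 genes (6.45%), Rrm1 and Rrm2, passed the fold limit, against 4.35% of all genes. The WT counts moved with the third WT control array: without it 3 genes passed the fold limit in place of 1, and 6 S-phase genes in place of 3 were lower at an adjusted p under 0.05.

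Rrm2 and Rrm1 are the subunits of ribonucleotide reductase, which makes the deoxyribonucleotides for DNA synthesis. Rrm2 read 10.07, 10.36 and 9.91 in WT control and 9.16, 9.16 and 9.13 in WT injured. In Mapk9 KO it read 10.11, 10.35 and 10.49 in control and 8.67, 9.22 and 8.98 in injured tissue. Every injured array was below every control array in both genotypes. The fall was 1.95-fold in WT (log2 change -0.96, SE 0.20, limma adjusted p = 0.00628) and 2.56-fold in Mapk9 KO (-1.36, SE 0.20, adjusted p = 0.000351). A second probe, detected on all 12 arrays, was also lower on average, by 0.83 on the log2 scale (adjusted p = 0.000342). The remaining probe was not above background on any injured array and gave falls of at least 1.01-fold in WT and 1.06-fold in Mapk9 KO. Rrm1 read 10.84, 11.27 and 10.42 in WT control and 10.32, 10.47 and 10.21 in WT injured, so that the groups overlapped at the third control array. Its Mapk9 KO values were 11.10, 11.43 and 11.32 against 10.04, 10.41 and 9.83, without overlap. Its change of -0.51 in WT (SE 0.24) did not pass (limma adjusted p = 0.154), while in Mapk9 KO it fell 2.28-fold (-1.19, SE 0.20, adjusted p = 0.000838). A second Rrm1 probe, also detected on all 12 arrays, fell in both WT (-0.69, SE 0.22, limma adjusted p = 0.0463) and Mapk9 KO (-1.42, SE 0.17, adjusted p = 0.0001). The third Rrm1 probe did not pass in WT (limma adjusted p = 0.274) and was lower in Mapk9 KO (adjusted p = 0.000973). It was detected on 2 of 3 WT injured and 1 of 3 Mapk9 KO injured arrays.

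Tk1, thymidine kinase, and Tyms, thymidylate synthase, supply thymidine nucleotides by salvage and by synthesis. Tk1 read 10.48, 10.62 and 9.90 in WT control, 9.90, 10.03 and 9.70 in WT injured, 10.17, 10.35 and 10.77 in Mapk9 KO control and 9.63, 9.88 and 9.30 in Mapk9 KO injured. It was lower in Mapk9 KO (-0.83, SE 0.22, limma adjusted p = 0.0119, but 0.0531 without the third injured array), and the WT change of -0.46 did not pass (SE 0.24, adjusted p = 0.19). Tyms, between 9.71 and 10.56 on all arrays, did not pass in either genotype (-0.08 in WT and -0.32 in Mapk9 KO).

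The E cyclins activate Cdk2 at the entry into S-phase. Ccne1 read 7.78, 8.13 and 7.76 in WT control and 6.91, 7.01 and 7.03 in WT injured, 7.83, 7.86 and 8.75 in Mapk9 KO control and 6.84, 6.60 and 6.66 in Mapk9 KO injured. The groups did not overlap in either genotype, and Ccne1 fell 1.88-fold in WT (-0.91, SE 0.20, limma adjusted p = 0.00789) and 2.72-fold in Mapk9 KO (-1.45, SE 0.25, adjusted p = 0.000994). Ccne2 read 7.55, 7.90 and 7.47 in WT control and 6.53, 4.66 and 5.62 in WT injured, where it was detected on 1 of 3 arrays. In Mapk9 KO the values were 7.72, 6.90 and 8.16 against 7.34, 6.78 and 7.67, which overlapped. Ccne2 fell in WT (-2.03, SE 0.39, limma adjusted p = 0.00434). With the 2 injured arrays below background raised to the lowest signal of a detected probe there (5.84 and 5.85), the fall was at least 2.96-fold. Its change in Mapk9 KO was -0.33 (SE 0.32, adjusted p = 0.454). The difference between the genotypes' changes did not pass the adjusted test (limma adjusted p = 0.368), and its size is not given because of the arrays below background.

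**Figure D2:**
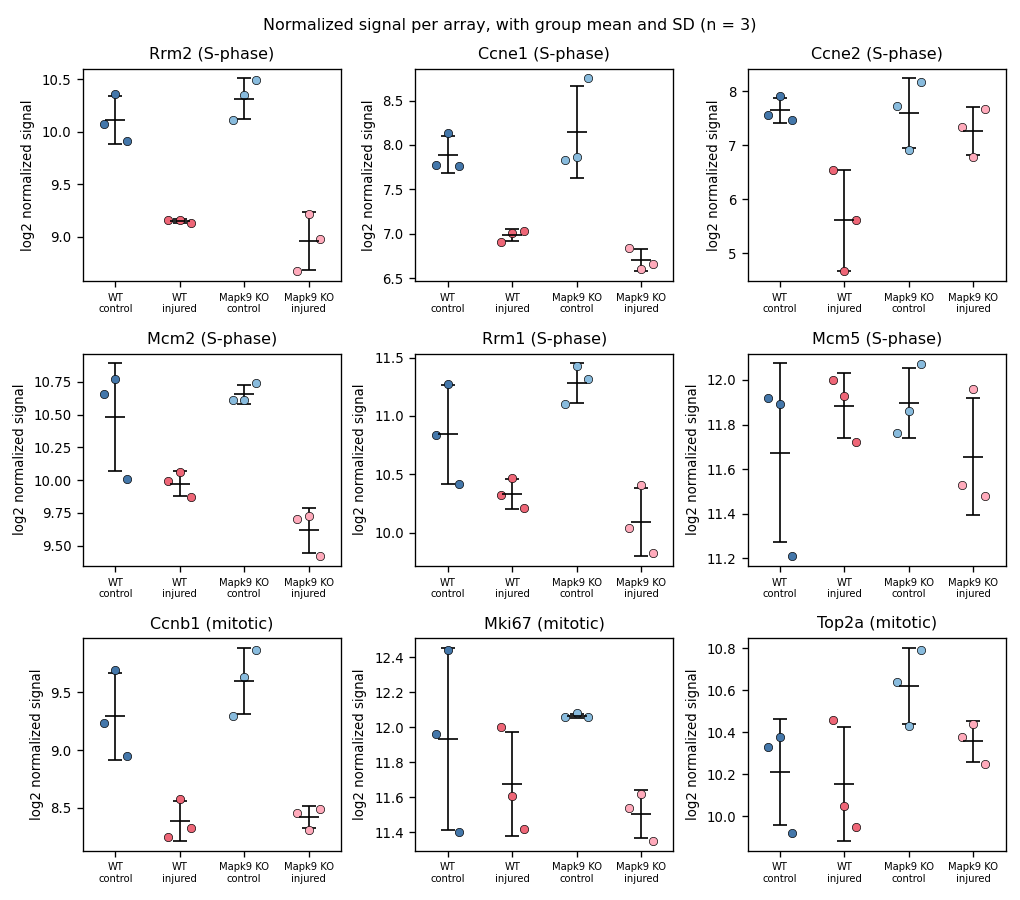
Log2 normalized signal (vertical axis, its own range in each panel) of 9 genes on the 3 arrays of each group, with the group mean and SD. Rrm2, Ccne1 and Ccnb1 show injured arrays below all control arrays in both genotypes, Ccne2 only in WT, and Mcm5, Mki67 and Top2a overlap between WT control and WT injured.

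Mcm2 to Mcm7 form the helicase that is loaded at replication origins, and its subunits did not change alike. Mcm2 read 10.66, 10.77 and 10.01 in WT control, 9.99, 10.06 and 9.87 in WT injured, 10.61, 10.61 and 10.74 in Mapk9 KO control and 9.70, 9.73 and 9.42 in Mapk9 KO injured. In Mapk9 KO it fell 2.05-fold (-1.04, SE 0.17, limma adjusted p = 0.000797). In WT its change was -0.51 (SE 0.24, adjusted p = 0.147), with the third control array among the injured ones. Mcm4 read 12.15, 12.27 and 11.56 in WT control, 11.67, 11.68 and 11.42 in WT injured, 12.03, 12.14 and 12.06 in Mapk9 KO control and 11.49, 11.56 and 11.31 in Mapk9 KO injured. It was lower in Mapk9 KO (-0.62, SE 0.17, limma adjusted p = 0.0125, but 0.0538 without the third injured array) and on average (-0.51, SE 0.14, adjusted p = 0.00665). The other subunits did not pass in the average effect at their main probes, with changes of -0.33 for Mcm3, -0.18 for Mcm6, -0.18 for Mcm7 and -0.01 for Mcm5. With the replicate block Mcm3 passed on average (limma adjusted p = 0.0243) and in Mapk9 KO (0.037), and Mcm7 in Mapk9 KO (0.0297). The 2 further probes of Mcm6 were lower, by 0.45 (limma adjusted p = 0.0157) and 0.34 (adjusted p = 0.0413), so that the call on Mcm6 depends on the probe. Mcm5 read 11.92, 11.89 and 11.21 in WT control and 12, 11.93 and 11.72 in WT injured, a change of 0.21 (SE 0.24).

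Cdc6 and Cdt1 load that helicase onto origins, and Pcna is the sliding clamp of the DNA polymerases. Cdc6 read 8.65, 8.94 and 8.48 in WT control, 8.17, 8.44 and 8.10 in WT injured, 8.71, 8.63 and 9.32 in Mapk9 KO control and 8.17, 8.13 and 8.22 in Mapk9 KO injured. No injured array reached the lowest control array of its genotype, and the average change was -0.58 (SE 0.14, limma adjusted p = 0.00434). Cdt1, listed as Ris2, was higher in the average effect. It read 10.23, 9.87 and 10.08 in WT control and 10.61, 10.61 and 10.66 in WT injured, without overlap (0.57, SE 0.19, limma adjusted p = 0.055). In Mapk9 KO it read 9.74, 10.12 and 10.41 against 10.10, 10.45 and 10.34, which overlapped (0.21, SE 0.21, adjusted p = 0.468). The average change was 0.39 (SE 0.14, adjusted p = 0.03). Pcna was dim, with its probe detected on 1 of 3 WT control, 1 of 3 WT injured, 2 of 3 Mapk9 KO control and 0 of 3 Mapk9 KO injured arrays. It read 5.22, 6.32 and 5.85 in WT control and 4.80, 5.88 and 5.12 in WT injured, 5.39, 6.28 and 6.49 in Mapk9 KO control and 4.68, 5.43 and 4.71 in Mapk9 KO injured. Since it was not above background on any Mapk9 KO injured array, its fall there was at least 1.15-fold (limma adjusted p = 0.0136). The call was lost without the second or the third Mapk9 KO control array or the third Mapk9 KO injured array (adjusted p between 0.051 and 0.0596). This bound sets the control mean against the lowest signal of a detected probe on each injured array, or the probe's own signal where that was higher.

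Ccnd1, which couples growth signals to G1, read 11.88, 11.62 and 11.19 in WT control and 11.14, 11.30 and 11.20 in WT injured. In Mapk9 KO it read 11.31, 11.64 and 10.93 against 11.22, 11.05 and 10.91. Control and injured arrays overlapped in both genotypes, and the average change of -0.29 did not pass (SE 0.15, limma adjusted p = 0.135). Another of its 3 probes passed at -0.38 (adjusted p = 0.0391).

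Ccnb1, the cyclin B that activates Cdk1 at entry into mitosis, had the largest average change of the 16 mitotic genes at their main probes (-1.04, SE 0.15). It read 9.23, 9.69 and 8.95 in WT control and 8.25, 8.58 and 8.33 in WT injured. Its Mapk9 KO values were 9.29, 9.63 and 9.86 against 8.46, 8.31 and 8.49. All injured arrays were below all control arrays of their genotype. Ccnb1 fell 1.87-fold in WT (-0.90, SE 0.23, limma adjusted p = 0.0184) and 2.25-fold in Mapk9 KO (-1.17, SE 0.19, adjusted p = 0.000731). The WT call was lost without the first WT injured array (adjusted p = 0.0663) or the third (adjusted p = 0.063). Its second probe was lower by 1.31 on average (limma adjusted p = 5.22e-06).

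Cdc2a encodes Cdk1, the partner of Ccnb1. It read 10.10, 10.58 and 9.81 in WT control and 10.26, 10.16 and 9.74 in WT injured, with overlap. In Mapk9 KO it read 10.27, 10.55 and 10.87 against 10.10, 10.15 and 9.83. Its changes of -0.11 in WT (SE 0.25) and -0.54 in Mapk9 KO (SE 0.20, limma adjusted p = 0.0571) did not pass. Plk1, a kinase of spindle assembly and mitotic exit, read 10.38, 10.30 and 9.94 in WT control, 9.84, 9.86 and 9.76 in WT injured, 10.15, 10.32 and 10.45 in Mapk9 KO control and 9.74, 9.96 and 9.55 in Mapk9 KO injured. No Plk1 value in injured tissue reached the control range of its genotype, and the average change was -0.47 (SE 0.13, limma adjusted p = 0.00685). The Aurora kinases did not pass, with average changes of 0.01 for Aurkb (SE 0.17) and -0.19 for Aurka (SE 0.16), the latter listed as Stk6.

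Mki67 encodes the Ki-67 antigen of dividing cells, and Top2a the topoisomerase that untangles chromosomes before they part. Mki67 read 11.96, 12.44 and 11.40 in WT control and 12, 11.61 and 11.42 in WT injured, which overlapped. In Mapk9 KO it read 12.06, 12.08 and 12.06 against 11.54, 11.62 and 11.35, a change of -0.56 (SE 0.17, limma adjusted p = 0.0208). This call was lost with all 12 arrays in 1 fit (adjusted p = 0.079) and without the first or second Mapk9 KO control or the first or the third Mapk9 KO injured array (0.0524 to 0.0819). The WT change was -0.26 (SE 0.28, adjusted p = 0.554). The average change of -0.41 (SE 0.17) had an adjusted p of 0.0592 by limma, and 0.0294 with the replicate block. Top2a at its main probe read 10.33, 10.38 and 9.92 in WT control, 10.46, 10.05 and 9.95 in WT injured, 10.64, 10.43 and 10.79 in Mapk9 KO control and 10.38, 10.44 and 10.25 in Mapk9 KO injured. Its average change there was -0.16 (SE 0.14, limma adjusted p = 0.377). The 2 other Top2a probes were lower on average, by 0.49 (adjusted p = 0.0236) and 0.95 (adjusted p = 9.83e-05), so the 3 probes had one direction and different sizes.

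Mad2l1, Bub1b and Cdc20 belong to the spindle checkpoint and its target. Mad2l1 read 10.01, 10.43 and 9.82 in WT control, 9.74, 9.38 and 9.73 in WT injured, 10.17, 10.23 and 10.63 in Mapk9 KO control and 9.57, 9.69 and 9.89 in Mapk9 KO injured, without overlap within a genotype. Its average change was -0.55 (SE 0.14, limma adjusted p = 0.00609), but a second, dimmer probe gave -0.09 (adjusted p = 0.683). Bub1b (-0.14) and Cdc20 (-0.16) did not pass at their main probes. The 4 Cdc20 probes disagreed in direction, with average changes of -0.16, 0.38, 0.20 and 0.10, of which 0.38 passed (limma adjusted p = 0.0262).

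Birc5 (survivin) is part of the chromosomal passenger complex, Cenpa is the centromere histone, and Nusap1, Prc1 and the kinesins Kif11, Kif22 and Kif23 build or move along the spindle. Birc5 read 11.65, 11.96 and 11.03 in WT control, 11.48, 11.25 and 11.09 in WT injured, 11.58, 11.74 and 11.74 in Mapk9 KO control and 11.10, 11.22 and 10.79 in Mapk9 KO injured. Its 3 probes were lower on average, by 0.46 to 0.61. At the main probe the average call was lost without any 1 of 7 arrays (the first or second WT control, the second or the third WT injured, the second or the third Mapk9 KO control, or the third Mapk9 KO injured array), with adjusted p between 0.0507 and 0.0721 by limma. Nusap1 read 10.27, 10.93 and 10.19 in WT control, 10.06, 10.21 and 9.90 in WT injured, 10.39, 10.51 and 10.86 in Mapk9 KO control and 9.72, 10.26 and 9.87 in Mapk9 KO injured, with an average change of -0.52 (SE 0.16, limma adjusted p = 0.015). In Mapk9 KO, where no Birc5 or Nusap1 values overlapped, the changes were -0.65 (SE 0.18, limma adjusted p = 0.0154) and -0.64 (SE 0.21, adjusted p = 0.0322). Without the third Mapk9 KO injured array these were lost (limma adjusted p = 0.0682 and 0.0936), and that of Nusap1 also without the first (0.118) or without the second or the third Mapk9 KO control array (0.0627 and 0.097). Kif22 passed only in Mapk9 KO, where it read 11.23, 11.45 and 11.27 in control and 10.70, 11.02 and 10.66 in injured tissue (-0.52, SE 0.18, limma adjusted p = 0.0385). That call was lost without any 1 of the 3 Mapk9 KO control arrays or without the first or the third Mapk9 KO injured array (adjusted p between 0.056 and 0.124), and with all 12 arrays in 1 fit (0.069). The WT change of Kif22 was -0.03 (SE 0.25), and whether the 2 genotypes differed did not pass a test (limma adjusted p = 0.617). Cenpa, Kif11, Kif23 and Prc1 did not pass in either genotype, with average changes between -0.30 and 0.06. With the replicate number as a block, Kif11 (-0.48, limma adjusted p = 0.0503 without and 0.0278 with the block) and Prc1 (-0.51, 0.052 without and 0.0351 with it) passed in Mapk9 KO.

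The median change of the S-phase genes lay below that of the mitotic genes in each of the 6 pairs of arrays by replicate number, a difference that was not tested. The counts of genes below 0 did not follow this in every pair, with 13 of 14 S-phase and 16 of 16 mitotic genes in the second WT pair and 14 of 14 and 16 of 16 in the third Mapk9 KO pair. The median changes over the S-phase genes were -0.48, -0.54 and -0.18 in the 3 WT pairs and -0.54, -0.54 and -0.97 in the 3 Mapk9 KO pairs. Over the mitotic genes they were 0.03, -0.40 and 0.05 in WT and -0.39, -0.35 and -0.72 in Mapk9 KO. The gap between the medians ran from -0.51 to -0.14, against medians over all genes of -0.05 to 0.02. The whole-group medians were -0.45 and -0.10 in WT and -0.67 and -0.51 in Mapk9 KO. The WT median of the mitotic genes changed sign when an array was left out, to 0.04 without the second WT control array and 0.02 without the third WT injured array, and it was -0.31 without the third WT control array. In Mapk9 KO the 7 mitotic genes that were lower (43.8%), beside 8 S-phase genes (57.1%), fell to 2 without the first or the third Mapk9 KO injured array and to 3 without the second or the third Mapk9 KO control array. Under neqc they were 10 (62.5%) beside 9 S-phase genes (64.3%), against 22.7% of all genes. Under quantile normalization they were 12 (75.0%) beside 10 (71.4%), against 23.9% of all genes. The 8 S-phase genes became 5 without the third Mapk9 KO injured array. The 5 mitotic genes of the average effect became 10 without the third WT control array. With other normalizations of the scanner signals (neqc, or quantile without background correction) 9 mitotic genes (56.2%) were lower in the average effect. The shares over all genes were 27.2% and 27.8%. With an array left out, the share over all genes was not taken. The difference between the S-phase and mitotic shares was not tested.

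**Figure D3:**
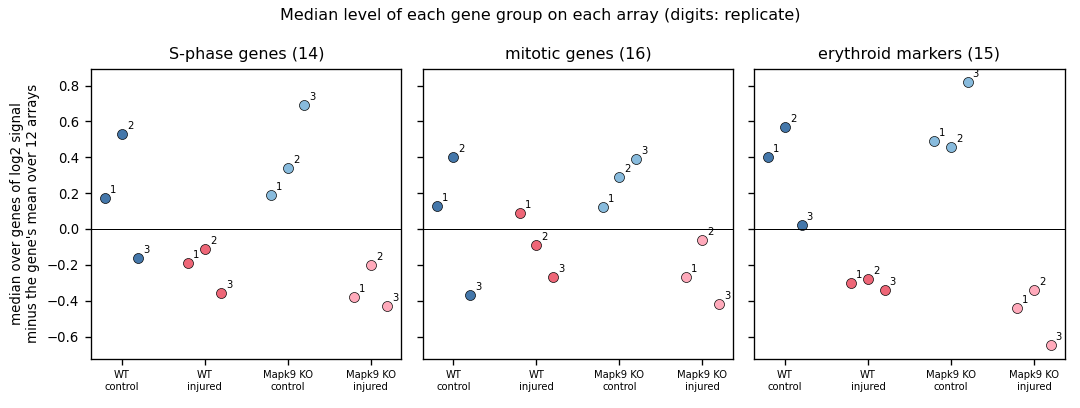
Median over the 14 S-phase genes, the 16 mitotic genes and 15 erythroid markers (vertical axis, log2 signal minus the gene's mean over 12 arrays) on each array, with digits for the replicate. The third WT control array lies at -0.16 for S-phase and -0.37 for mitotic genes, below the other control arrays, and at 0.02 for the erythroid markers, which otherwise lie between 0.40 and 0.82 in control and between -0.65 and -0.28 in injured tissue.

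Markers of other cells moved with injury too, and their counts stand beside 24.9% of all genes lower and 22.2% higher in the average effect. Of 15 measured erythroid markers, all detected on all 12 arrays, 9 were lower in the average effect, among them Klf1 (-1.53), Gata1 (-1.18) and Tfrc (-0.90), named after their values were seen, while the globin genes Hba-a1 (0.13) and Hbb-b1 (0.14) did not pass. The log2 of their summed signal was 15.8 to 16.6 in WT control and 16.1 to 16.5 in WT injured, 16.2 to 16.7 in Mapk9 KO control and 15.8 to 16.4 in Mapk9 KO injured. Of 12 granulocyte precursor markers 8 were higher and 0 lower, and the log2 of their sum was 15.8 to 16.5 in WT control and 17.0 to 17.2 in WT injured, 16.2 to 16.7 in Mapk9 KO control and 16.7 to 17.2 in Mapk9 KO injured. All 17 skeletal muscle markers were lower, and the log2 of their sum went from between 16.2 and 16.9 to between 13.4 and 15.2 in WT and from between 17.1 and 17.7 to between 13.8 and 15 in Mapk9 KO. Chondrocyte markers were detected on every array, and 8 of 11 were higher, with log2 sums of 15.2 to 16.1 in WT control, 16.6 to 16.8 in WT injured, 15.3 to 16.1 in Mapk9 KO control and 16.4 to 16.7 in Mapk9 KO injured. Of 8 osteoclast and osteoblast markers 5 were lower and 0 higher (median -0.58), with log2 sums of 15.7 to 16.4 in WT control, 15.9 to 16.1 in WT injured, 15.9 to 16.6 in Mapk9 KO control and 15.4 to 15.9 in Mapk9 KO injured. Of 9 macrophage markers 5 were lower and 3 higher, with changes from -2.69 to 5.17 and a median of -1.09. The log2 of their sum, in which the brightest markers weigh most, went from between 13 and 13.4 to between 14.2 and 14.5 in WT. In Mapk9 KO it went from between 13.3 and 13.6 to between 14.3 and 14.8. Of 4 adipocyte markers, none of them detected on all 12 arrays, 3 were lower, with log2 sums of 10.5 to 12.5 in WT control, 7.5 to 9.1 in WT injured, 11.9 to 13.5 in Mapk9 KO control and 6.9 to 7.6 in Mapk9 KO injured. Of 8 markers of hypertrophic and growth plate chondrocytes 5 were higher and 2 lower (median 0.76), with log2 sums of 14.8 to 15.2 in WT control, 15.3 to 15.5 in WT injured, 14.6 to 15.1 in Mapk9 KO control and 15.3 to 15.5 in Mapk9 KO injured. Of 9 measured B and T cell markers 4 were higher and 1 lower (median 0.46), with log2 sums of 12.3 to 13 in WT control, 13.2 to 13.6 in WT injured, 12.8 to 13.1 in Mapk9 KO control and 12.9 to 13.5 in Mapk9 KO injured. Of 9 endothelial markers 1 was higher, 2 were lower and 6 did not pass (median 0.09), and their log2 sums lay between 12.5 and 13.2 over all arrays. The part of these cells in the changes of the cell cycle genes was not tested.

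Mapk9 KO and WT cartilage differed in 1 of the 31 genes, Kif23, in control tissue (background 0.11% of all genes tested) and in injured tissue (background 0.169%). Kif23 is the kinesin of the central spindle. Its main probe read 10.79, 11.28 and 10.50 in WT control and 8.07, 8.5 and 8.82 in Mapk9 KO control. After injury it read 10.92, 11.04 and 10.73 in WT and 7.79, 8.18 and 8.05 in Mapk9 KO. The genotypes did not overlap, and the signal was 5.26-fold lower in Mapk9 KO control (-2.40, SE 0.27, limma adjusted p = 0.00398) and 7.41-fold lower in Mapk9 KO injured (-2.89, SE 0.17, adjusted p = 5.34e-05). By the methods' t-test with Benjamini-Hochberg adjustment, unlike limma, neither passed (adjusted p = 0.514 in control and 0.224 in injured tissue). The 2 other Kif23 probes were also below 0 in Mapk9 KO minus WT but did not pass. The RefSeq probe read 9.44, 9.85 and 9.23 in WT control and 9.04, 9.45 and 9.62 in Mapk9 KO control, with overlap (-0.14, SE 0.24, limma adjusted p = 0.975). In injured tissue it read 9.92, 10.05 and 9.46 in WT and 9.08, 9.28 and 8.88 in Mapk9 KO, without overlap (-0.73, 95% interval -1.18 to -0.28, limma adjusted p = 0.229). The Riken probe was at -0.84 in control tissue (SE 0.22, limma adjusted p = 0.447) and -0.88 in injured tissue (SE 0.23, adjusted p = 0.226). It was detected on 2 of 3 Mapk9 KO control and 1 of 3 Mapk9 KO injured arrays, so background limits these sizes. The probes have 50 bases, and the first 30 of each are shown as deposited. They are shown because the MEEBO and RefSeq probes, different stretches under 1 gene symbol, gave differences of different size. The MEEBO probe starts at base 3095 and the RefSeq probe at base 2828 of the same RefSeq transcript, and the Riken probe at base 1671 of another transcript.
Kif23 MEEBO probe, the main probe: gtatccagatcacgttgcccttttttattg
Kif23 RefSeq probe: gtagtcggaaacgaagatcgtccaccctag
Kif23 Riken probe: ctgcctcggggaggccccgttggagatggt

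**Figure D4:**
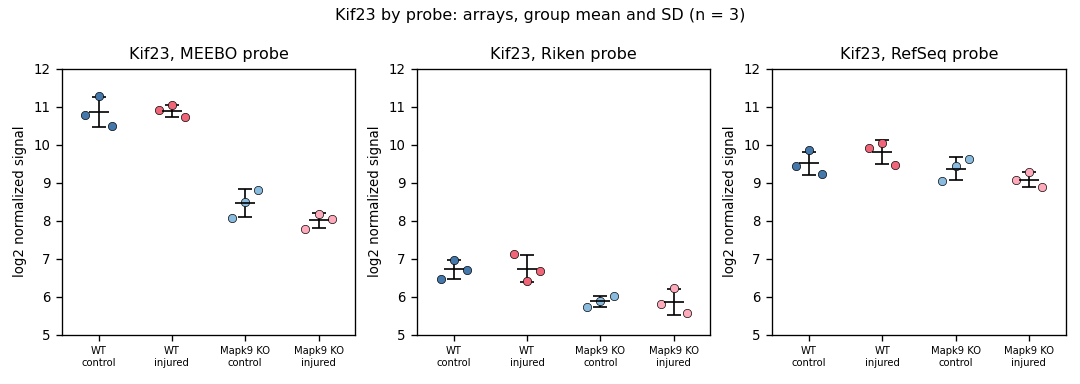
Log2 normalized signal (vertical axis) of the 3 Kif23 probes on the 3 arrays of each group, with the group mean and SD. Only the MEEBO probe separates the genotypes widely, with 10.50 to 11.28 on WT arrays and 7.79 to 8.82 on Mapk9 KO arrays.

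The other 30 genes did not differ between genotypes at the adjusted threshold. In control tissue 27 of the 31 genes were above 0 in Mapk9 KO minus WT, with a median of 0.19, beside 7418 of all 15424 genes (median -0.01). These values include the third WT control array and were not taken without it. Set against each gene's mean over the 12 arrays, the S-phase medians were 0.17, 0.53 and -0.16 in WT control and 0.19, 0.34 and 0.69 in Mapk9 KO control. The mitotic medians were 0.13, 0.40 and -0.37 in WT control and 0.12, 0.29 and 0.39 in Mapk9 KO control. In injured tissue 26 of the 31 were below 0, with a median of -0.17, beside 9192 of all genes (median -0.06). All 17 skeletal muscle markers were above 0 in the same comparison of control tissue (median 1.38), and their part was not tested. Ccne2, below background on 2 WT injured arrays, did not pass in injured tissue either (limma adjusted p = 0.21). Whether the injury change itself differed between genotypes was tested as an interaction over 12 arrays. By limma 0 of the 31 genes and 0 of all 15424 (background 0%) passed an adjusted p under 0.05, while 2 of the 31 and 1359 of the 15424 had an unadjusted p under 0.05. The 2 were Ccne2 and Rrm1 (-0.68, 95% interval -1.36 to 0.00). Point estimates were below 0 in 28 of 31 genes, with a median of -0.37, beside 8399 of all 15424 genes (median -0.04). The WT change in each of these differences includes the third WT control array, where the S-phase and mitotic medians were both low. The count of signs and its median were not taken without that array. With replicate number as a blocking term, limma also gave 0 genes.

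Other replication genes came from a list of 42, of which 31 were in the table. In the average effect 14 of the 31 were lower, against 24.9% of all genes, and 1, Timeless, was higher (0.34). The other 16 did not pass, and the median was -0.34. Chaf1b, a subunit of the chromatin assembly factor at the fork, changed by -1.08 (SE 0.13, limma adjusted p = 8.35e-06), the origin subunit Orc5l by -0.92, the flap nuclease Fen1 by -0.81, Mcm10 by -0.66 and the single-strand binding protein Rpa1 by -0.62. Of 32 other mitotic genes, of 50 listed, 10 were lower, near the share over all genes, 0 were higher and 22 did not pass, with a median of -0.22. Examples are the phosphatase Cdc25b (-0.79), the spindle protein Ckap2 (-1), shugoshin Sgol1 (-0.75), the kinetochore protein Spc25 (-0.64) and Kntc1 (-0.55).

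Most inhibitors of the cycle rose. Of 16 CDK inhibitors and arrest genes in the table, 12 were higher and 3 lower in the average effect, with a median of 0.85. Of all genes tested, 22.2% were higher. Gadd45b, Gadd45g and Gadd45a, stress-induced genes that restrain the G2/M step, rose by 3.54, 2.25 and 2.05. Cdkn1a (p21), an inhibitor of cyclin E and Cdk2, read 11.30, 10.81 and 10.93 in WT control and 12.66, 12.92 and 12.69 in WT injured. It read 10.87, 11.25 and 10.72 in Mapk9 KO control and 12.72, 12.98 and 12.53 in Mapk9 KO injured. It rose by 1.75 in WT (SE 0.21, limma adjusted p = 0.0003) and by 1.79 in Mapk9 KO (SE 0.20, adjusted p = 5.78e-05), and the groups did not overlap. The difference between these rises was 0.05 (95% interval -0.56 to 0.65). The 3 that fell were Ccng1 (-1.34), Cdkn2c (-0.69) and Chek2 (-0.53), the last pair named after their values were seen.

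**Figure D5:**
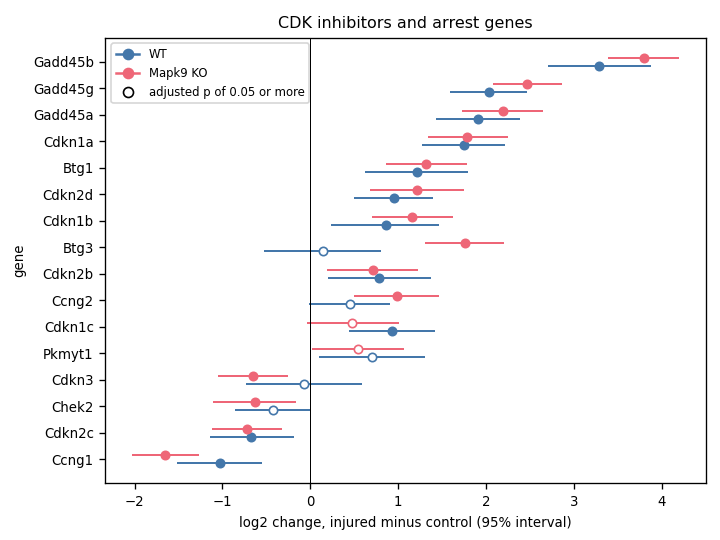
Log2 change with injury (horizontal axis, injured minus control, 95% interval) of 16 CDK inhibitors and arrest genes in WT and Mapk9 KO. Open points have an adjusted p of 0.05 or more. The Gadd45 genes and Cdkn1a lie at 1.75 or above in both genotypes, and Ccng1 lies furthest to the left, at -1.03 in WT and -1.65 in Mapk9 KO.

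Among 12 transcription factors and pocket proteins of the cycle, E2f3 rose (1.36, SE 0.12, limma adjusted p = 6.21e-07), 5 fell and 6 did not pass, with a median of -0.07 over the 12, beside 24.9% of all genes lower, 22.2% higher and a median of -0.03. They were the repressor E2f6 (-0.71), Mybl2 (-0.66), Rb1 (-0.57), E2f4 (-0.49) and Rbl1 (-0.58), the last named after its value was seen. Of 13 other G1 cyclins and kinases 3 fell, close to the 24.9% of all genes that were lower, 1 rose and 9 did not pass. Skp2, which marks p27 for breakdown, fell by 0.91 and the phosphatase Cdc25a rose by 0.79, while Cdk7 and Skp1a both fell by 0.57.

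Promoters were searched because S-phase and mitotic genes are known to be read through different elements. The 250 bases before the start of transcription were taken from RefSeq (build GRCm38.p6) for 13 S-phase and 25 mitotic genes of the 45, Cdc2a under its name Cdk1, with the first entry where there were several. Searched on both strands were the CHR core (TTTGAA or TTCGAA), an E2F motif (TTTCCCGC, TTTCGCGC, TTTGCCGC or TTTGGCGC) and CCAAT. Matches of different motifs may overlap. CHR cores were in 9 of the 25 mitotic promoters (36.0%), 2 of the 13 S-phase promoters (15.4%) and 17.1% of all 32851 promoters in the table. CCAAT was in 21 mitotic (84.0%), 8 S-phase (61.5%) and 33.8% of all promoters. E2F motifs were in 4 S-phase (30.8%), 1 mitotic (4.0%) and 1.86% of all promoters. A match is a description and not a bound site.

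The promoters below were chosen after the values were seen, to show genes of each role with different motif content. Rrm2 and Ccnb1 are among the 4 genes past the fold limit in the average effect, and Mcm6, Cdc2a and Top2a did not pass the test at their main probes, while the other probes of Mcm6 and Top2a did. Capitals mark every match of the 3 motifs.
Rrm2, chr12:24708004-24708253, + strand, 1 CCAAT: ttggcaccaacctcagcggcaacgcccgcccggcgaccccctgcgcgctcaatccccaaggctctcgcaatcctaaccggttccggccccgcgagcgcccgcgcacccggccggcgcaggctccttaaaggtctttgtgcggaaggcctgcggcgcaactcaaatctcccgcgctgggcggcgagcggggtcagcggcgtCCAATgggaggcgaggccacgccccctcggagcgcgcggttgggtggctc
Ccnb1, chr13:100786487-100786736, - strand, 2 CCAAT: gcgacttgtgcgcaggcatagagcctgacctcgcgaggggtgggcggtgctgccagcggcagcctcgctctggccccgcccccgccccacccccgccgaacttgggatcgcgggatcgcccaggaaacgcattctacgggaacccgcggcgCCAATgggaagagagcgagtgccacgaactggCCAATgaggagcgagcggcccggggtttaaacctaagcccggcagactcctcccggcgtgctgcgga
Mcm6, chr1:128359706-128359955, - strand, 3 E2F and 2 CCAAT: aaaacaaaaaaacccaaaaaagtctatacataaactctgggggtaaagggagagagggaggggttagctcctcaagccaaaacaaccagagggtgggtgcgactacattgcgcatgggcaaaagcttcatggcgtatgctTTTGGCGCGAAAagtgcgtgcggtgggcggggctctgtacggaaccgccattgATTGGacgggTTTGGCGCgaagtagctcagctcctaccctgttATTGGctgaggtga
Cdc2a (Cdk1), chr10:69352913-69353162, - strand, 1 E2F, 2 CHR and 3 CCAAT: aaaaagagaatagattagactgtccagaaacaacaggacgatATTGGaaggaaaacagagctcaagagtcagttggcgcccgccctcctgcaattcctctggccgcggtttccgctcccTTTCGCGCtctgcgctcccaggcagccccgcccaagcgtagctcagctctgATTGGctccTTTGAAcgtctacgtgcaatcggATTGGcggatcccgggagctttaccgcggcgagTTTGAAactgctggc
Top2a, chr11:99024190-99024439, - strand, 4 CHR and 6 CCAAT: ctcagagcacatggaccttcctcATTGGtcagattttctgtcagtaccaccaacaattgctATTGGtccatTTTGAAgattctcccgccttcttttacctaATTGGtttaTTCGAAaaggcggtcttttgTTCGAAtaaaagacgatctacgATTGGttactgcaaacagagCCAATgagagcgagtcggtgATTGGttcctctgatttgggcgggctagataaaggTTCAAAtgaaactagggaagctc
The nearest CHR core to the start lay at 15 bases before it in Cdc2a and at 23 bases in Top2a, counted from the match's first base. These letters do not occur in the 250 bases of Ccnb1, which says nothing about more distant elements.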

How the data were processed

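Total RNA from 12 samples of mouse hip cartilage had been hybridised to Illumina BeadChips, 1 array per sample and 3 per group. The authors deposited scanner intensity values with a detection p-value for each of 45281 probes, and a table of log2 values for 21004 probes made from them by subtracting a background estimated on the negative controls and applying vsn. The filter that kept these probes is not given in the sources used here. The deposited detection p-value moves in steps of 1 in 936. Groups were taken from the labels. The deposited log2 values were fitted with limma 3.58.1 in R 4.3.3. Each pair of groups was fitted on its 6 arrays, and the interaction and the average injury effect on all 12. P-values were adjusted by Benjamini-Hochberg over all 21004 probes, and a gene was counted at its main probe. A gene passed at an adjusted p under 0.05, and past the fold limit at a fold above 2 as well. The fits were run on simulated data with independent noise on each array, to check that planted changes were recovered. This does not test error rates when arrays deviate together by replicate number. Replicates are pools of mice, and their number limits the precision.

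Values on every array were given for genes past an adjusted p under 0.05, at most the 12 smallest per comparison, and for Mki67, Top2a, Ccnb1, Cdc2a, Pcna, Mcm2, Rrm2 and Ccnd1. From each other cell cycle list at most 5 genes were named by adjusted p, with Cdkn1a always. The members and lists were chosen with earlier results of these data known. Samples with the same replicate number deviated together from their group means (18 pairs, r 0.153 to 0.390, against -0.289 to 0.0825 in the 36 other pairs). Deviations from a group mean sum to 0, so r in the other pairs is not independent of r in these. The numbers were therefore used to pair the arrays and as a block in an alternative fit, from the data and not from a stated batch. The main fits have no block. Alternatives were neqc and quantile normalization of the scanner signals, centred medians, a filter on dim probes, the replicate number and the label code number as blocks, all 12 arrays in 1 fit, the methods' t-test, no fold limit, any probe of a gene, and each array left out. Counting Aurka and Cdt1, and repeating the alternatives for the S-phase and mitotic counts, were chosen after seeing the data.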

Additional observations from a re-analysis of the deposited data

How the results depend on the processing

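Of 35 gene results past the threshold, none reversed under the alternatives run for them. All 35 kept their call under neqc, quantile normalization, centred medians, the filter on dim probes and both blocks. With all 12 arrays in 1 fit, 2 of 21 lost it (Kif22 and Mki67 in Mapk9 KO), and with the methods' t-test after Benjamini-Hochberg 11 of 21. Counts of genes past the fold limit were 1 in WT, 6 in Mapk9 KO and 4 in the average effect. Under quantile normalization they were 0, 2 and 1, and with no fold limit 4, 15 and 14. In WT neqc gave 2 and the methods' t-test 0. The t-test also gave 0 in place of 1 (Kif23) for each genotype comparison. Leaving out 1 array gave 1 to 3 in WT, 4 to 6 in Mapk9 KO, 3 to 4 in the average effect, 1 for genotype in control and 1 to 2 in injured tissue (2 without the first WT injured array), and 0 for the interaction.

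Of S-phase genes lower at an adjusted p under 0.05, the 3 in WT became 6 under neqc and 7 under quantile normalization (3 to 6 leaving out an array). The 8 in Mapk9 KO became 5 by the t-test (5 to 8), and the 9 of the average effect ran from 9 to 10. Of mitotic genes, the 1 in WT became 2 under neqc, 2 under quantile normalization, 0 by the t-test and 3 with any probe counted (0 to 1). The 7 in Mapk9 KO became 12 under quantile normalization and 3 by the t-test (2 to 7), and the 5 of the average effect became 9 under both normalizations (4 to 10). Leaving out an array moved the S-phase medians between -0.59 and -0.28 in WT, -0.76 and -0.64 in Mapk9 KO and -0.69 and -0.54 on average. The mitotic medians moved between -0.31 and 0.04 in WT, -0.60 and -0.45 in Mapk9 KO and -0.41 and -0.21 on average. The WT mitotic median of -0.10 reversed to 0.04 without the second WT control array and 0.02 without the third WT injured array. The cause of these changes was not tested.

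With the replicate number as a block, the counts past the fold limit stayed at 1, 6 and 4, those for genotype at 1 and 1, and that for the interaction at 0. Under the block the S-phase counts were 3, 10 and 10 and the mitotic counts 1, 9 and 6 in WT, Mapk9 KO and on average, and the medians were -0.45, -0.67 and -0.61 for S-phase and -0.10, -0.51 and -0.30 for mitotic genes. The block lost no call and gained Mcm3, Mcm7, Kif11 and Prc1 in Mapk9 KO and Mcm3 and Mki67 on average. Probes close to background limit what can be said of Pcna and Ccne2, and 12 of the 45 genes have no normalized value.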

Other observations

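Btg3, an antiproliferative gene, changed by 0.14 in WT (SE 0.29). In Mapk9 KO its probe was not above background on any control array, and it rose at least 3.08-fold (limma adjusted p = 5.72e-05). The difference between the genotypes' changes did not pass (limma adjusted p = 0.277), and its size is not given because of those arrays. Timeless, which protects replication forks, changed by -0.22 in WT and 0.90 in Mapk9 KO (limma adjusted p = 0.00399). For Timeless the difference was 1.12 (95% interval 0.57 to 1.67) and did not pass either (limma adjusted p = 0.277). Both were chosen after their values were seen. Aurka, listed as Stk6, read 9.76, 9.91 and 9.26 in WT control and 9.56, 9.79 and 9.28 in WT injured, with overlap, and 9.34, 9.70 and 9.96 in Mapk9 KO control against 9.45, 9.57 and 9.12 in Mapk9 KO injured.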
